A study of Mus musculus with 2 samples.

Results

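Cyclic nucleotide phosphodiesterases hydrolyse cyclic AMP and cyclic GMP and thereby end the signals that hormones and natriuretic factors start inside a cell. In the kidney, cyclic AMP carries the signals of vasopressin, parathyroid hormone and β-adrenoreceptors, whereas cyclic GMP carries those of natriuretic peptides and nitric oxide. The families differ in which nucleotide they split. PDE4 and PDE8 enzymes are specific for cyclic AMP, PDE5 and PDE9 enzymes for cyclic GMP, and PDE1, PDE3 and PDE10 enzymes act on both.

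10 phosphodiesterase genes, of 31829 gene names on the array, were followed here: Pde1a, Pde3a, Pde3b, Pde4a, Pde4b, Pde4d, Pde5a, Pde8a, Pde9a and Pde10a. Their probes were all gene probes that carried one of these symbols, 17 in number, and 2 further probes that the array lists under transcript identifiers and describes as phosphodiesterase 4D, which gave 19 of 39429 probes. 4 probes for Pde4dip, whose product binds phosphodiesterase 4D and is not one, were left out. The genes were selected on measured values, with the ratios of knockout over control on these same arrays known, so their ratios are given as a description and without a test.

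RNA came from kidneys of 2-month-old mice, and 2 two-colour arrays compared the same pair of genotypes. The knockout was Cnnm2fl/fl;Six2-Cre, in which Cnnm2, coding for a magnesium transporter of the distal convoluted tubule, is deleted wherever Six2-Cre was active, and the control was Cnnm2+/+;Six2-Cre, so both genotypes carried the Cre transgene. Six2 drives Cre in nephron progenitors, so the cells of the nephron descend from recombined cells, and other cells of the kidney need not. On array 1 the knockout was labelled with Cy5 and the control with Cy3, and on array 2 the dyes were exchanged. The sources used here state neither the number of mice nor whether both arrays carried the same RNA, so each genotype counts as 1 replicate, the SD printed below is between the 2 arrays, and the ratios are given without a p-value. Tests over the 2 arrays were run as alternatives and measure only the spread between these arrays. Fewer cells of a type and less RNA per cell cannot be told apart in whole kidney.

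The direction was checked on Cnnm2 itself. Its processed signal, the scanner software's background-corrected and dye-normalized intensity, was 626 and 591 in the knockout and 4620 and 3247 in the control, a log2 ratio of knockout over control of -2.88 on array 1 and -2.46 on array 2. Defining markers of the proximal tubule, podocyte, thick ascending limb, distal convoluted tubule and collecting duct were all detected. A probe counted as tested where both arrays marked at least 1 genotype, the same on each, as well above background, the software's term for a spot brighter than its surroundings. The contrast between the dyes was large. Over the 24593 probes tested, the ratios of the 2 arrays had a Pearson r of -0.55 after they were turned to knockout over control, and 27.0% had the same direction on both. The points of this correlation are probes that share the 2 arrays and their dyes.

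The sequences of 4 probes are shown because the results turn on them: the 3 Pde4d probes, which read different stretches of the gene, and the Pde5a probe. All are printed 5′ to 3′ from the array design, with positions on mouse build mm9. The first Pde4d probe (chr13:109910773-109910832, plus strand) is listed under transcript ENSMUST00000105096, and its first 30 bases are shown with the first stop codon of 2 reading frames in capitals; all 3 frames of the 60-base probe held a stop. The second (chr13:110051079-110051138) is listed under ENSMUST00000079975, and the capitals mark an ATG whose frame ran to the end of the probe without a stop. The third (chr13:110741493-110741552) is listed as Pde4d, NM_011056, and the capitals mark a stop codon that ends the probe after an otherwise open frame. Of the Pde5a probe (chr3:122558949-122559008, NM_153422) the first 30 bases are shown, with the first stop codon of 1 frame in capitals. None of the 4 sequences occurred on another probe of the array.
Pde4d A_55_P1986461: cacggcagccatttacctTAAcTGAcaaaa
Pde4d A_55_P2010401: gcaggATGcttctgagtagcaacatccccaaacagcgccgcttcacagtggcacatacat
Pde4d A_55_P2010396: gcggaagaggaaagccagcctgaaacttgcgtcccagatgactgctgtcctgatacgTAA
Pde5a A_55_P2042778: gccctccaccaagagaaatgttttactTGA

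Of the 19 phosphodiesterase probes, 15 were tested and 11 of these were well above background in both genotypes. Every gene had at least 1 tested probe, and only Pde3a had none that was well above background in both genotypes. A probe was called where its mean log2 ratio was at least 1 in size and had the same direction on both arrays. 2 of the 15 probes were called higher in the knockout, 1 for Pde4d and 1 for Pde5a, and none was called lower. By the same rule 0.313% of all probes tested were called higher and 0.26% lower, but the genes were chosen on this contrast, so nothing is read from the count. The other 13 probes had mean log2 ratios between -0.70 and 0.32. Just inside the 2-fold limit lay Pde5a at 1.11, and the nearest phosphodiesterase probe outside it with one direction on both arrays was the second Pde4d probe at -0.70.

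**Figure D1:**
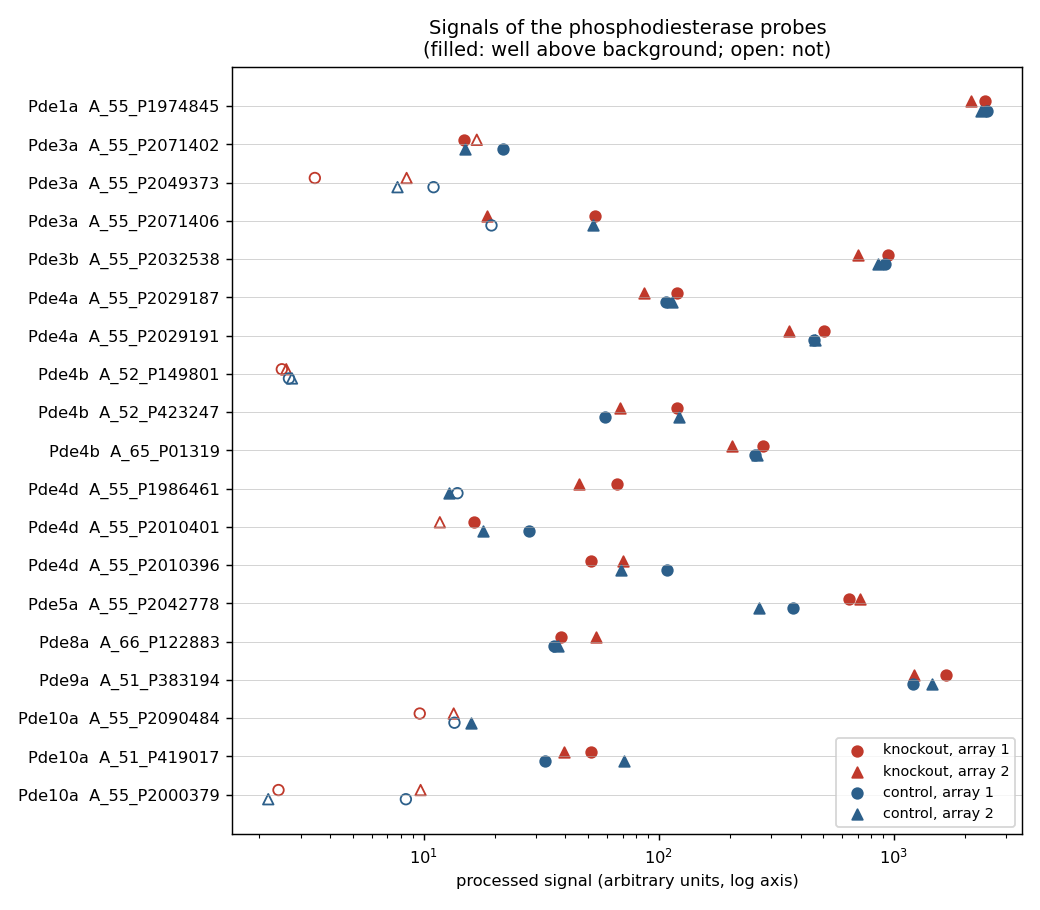
Processed signal (arbitrary units, log axis) of each of the 19 phosphodiesterase probes in the knockout (red) and control (blue) on array 1 (circles) and array 2 (triangles). Filled symbols are well above background; signals of different probes are not comparable with each other. The genotypes stand apart on both arrays, with the knockout higher, for Pde4d A_55_P1986461, Pde5a A_55_P2042778 and Pde8a. With the knockout lower they do so for Pde4d A_55_P2010401 and the untested A_52_P149801 and A_55_P2090484.

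Among the cyclic AMP-specific enzymes, Pde4d had the largest ratio and also the widest disagreement between probes. PDE4D is expressed as many isoforms that differ in their amino-terminal part and are held at different places in the cell. The processed signal of the first probe, A_55_P1986461, was 66.1 and 45.5 in the knockout and 13.9 and 12.8 in the control. Both knockout values lay above both control values, though the share of all probes without overlap, here and below, was not counted. Array 1 gave a log2 ratio of 2.25 and array 2 one of 1.83, and the mean was 2.04 ± 0.30 (SD, n = 2 arrays), which is 4.11-fold. The scanner software gave the log2 ratio an error of 0.33 on array 1 and 0.32 on array 2.

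The probe was dim. The raw signal of the knockout was 169 on array 1 and 119 on array 2, and that of the control was 70.1 and 75.9, over local backgrounds of 33 to 44. The control was well above background on 1 of the 2 arrays. The ratio depended on the processing: it was 0.83 with no background correction and 0.31 with normexp, a model-based correction, with an offset of 50, each followed by loess in place of the software's dye normalization. With background-subtracted signals centred on the median, without loess, it was 2.10. Loess on background-subtracted signals was not run, so the part of each change was not tested. This Pde4d probe was not called with no background correction or with normexp. Nor was it where both genotypes had to be well above background.

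The other Pde4d probes were not higher. The signal of A_55_P2010401 was 16.3 and 11.7 in the knockout and 28.1 and 17.8 in the control, so that the genotypes did not overlap. Its log2 ratio was -0.79 and -0.61, with a mean of -0.70 ± 0.13 (SD, n = 2 arrays), and the knockout was well above background on array 1 only. This mean too was closer to 0 under the same alternatives, at -0.20 with no background correction and -0.05 with normexp, each with loess. The signal of A_55_P2010396, which ends at a stop codon and was well above background in every channel, was 51.5 and 70.5 in the knockout and 108 and 68.8 in the control. Here the genotypes overlapped. Array 1 gave a log2 ratio of -1.06 and array 2 one of 0.04, and the mean was -0.51 ± 0.78 (SD, n = 2 arrays).

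The means of the 3 Pde4d probes thus spanned 2.74 on the log2 scale. They lay closer together under 2 of the alternatives, but not with background-subtracted signals centred on the median, where they were 2.10, -0.62 and -0.47. With no background correction and loess normalization they were 0.83, -0.20 and -0.29, in the order of the probes along the gene, and with normexp and loess they were 0.31, -0.05 and -0.17. The first probe had the highest of the 3 means under each of these settings.

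The 3 probes lay on the plus strand of chromosome 13 in a stretch of 831 kb, the second 140.3 kb and the third 830.7 kb from the first. 5 probes of other names lay between them, and 4 were tested. NAP059783-1, which lay 43.8 kb from the first Pde4d probe, had log2 ratios of 0.40 and 0.10. 9530083O12Rik had a mean of 0.06, A730009E18Rik of -0.18 and C530030K21Rik of 0.01, each with opposite signs on the 2 arrays. No other tested probe in the stretch was called.

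**Figure D2:**
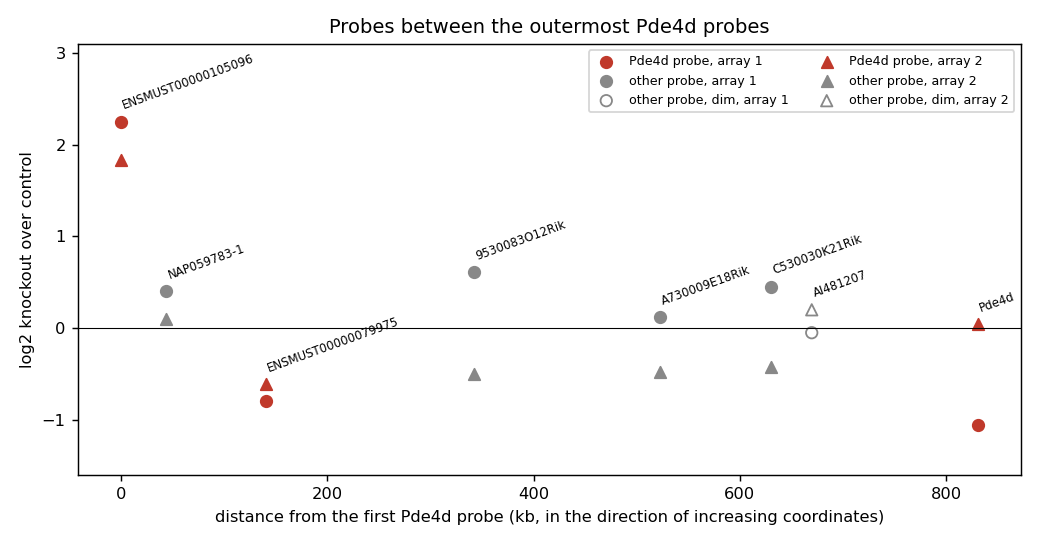
Log2 ratio of knockout over control on array 1 (circles) and array 2 (triangles) against distance in kb from the first Pde4d probe, for the 8 probes in the stretch; red marks Pde4d, grey other names, and open symbols a probe that was not tested. The first Pde4d probe stands at 2.25 and 1.83, and every other probe lies between -1.06 and 0.61.

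None of the remaining cyclic AMP-specific genes was called. The 2 Pde4a probes had the same mean. The signal of A_55_P2029191 was 502 and 356 in the knockout and 455 and 460 in the control, with log2 ratios of 0.14 and -0.37, and A_55_P2029187 had 0.16 and -0.39. Both means were -0.11, and each changed direction with the dye. For Pde4b, A_65_P01319 gave 278 and 205 in the knockout and 257 and 260 in the control, with log2 ratios of 0.11 and -0.34.

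A second Pde4b probe, A_52_P423247, had signals of 119 and 68.2 in the knockout and 59.1 and 122 in the control. The Cy5 channel was the brighter one on both arrays, whichever genotype it held. Its log2 ratios of 1.02 and -0.84 gave a mean of 0.09 ± 1.31 (SD, n = 2 arrays). The remaining Pde4b probe, A_52_P149801, lay between 2.49 and 2.75 in all channels and was not tested. Pde8a, read by 1 probe whose 60 bases spread over a longer genomic span (chr7:88469098-88471174), had signals of 38.4 and 53.9 in the knockout and 35.8 and 37.2 in the control. Its log2 ratios were 0.10 and 0.54, with a mean of 0.32 ± 0.31 (SD, n = 2 arrays): the direction was the same on both arrays, but the mean was close to the SD between them.

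Of the cyclic GMP-specific genes, Pde5a was higher in the knockout on both arrays. PDE5A, the target of sildenafil, is known for ending the action of nitric oxide in vascular smooth muscle. Its 1 probe had a processed signal of 641 and 718 in the knockout and 371 and 267 in the control. Every channel was well above background. The genotypes did not overlap, but this was also so for Pde8a, which was not called, and for the untested Pde4b probe. For Pde5a, array 1 gave a log2 ratio of 0.79 and array 2 one of 1.43. The mean was 1.11 ± 0.45 (SD, n = 2 arrays), which is 2.16-fold. The software's error was 0.22 and 0.24.

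The mean log2 ratio of Pde5a was 1.02 without background correction and 0.77 with normexp, both with loess, and in the latter it was no longer called. On array 1 it was below 2-fold, so it was also lost when at least 2-fold was asked of each array. Pde9a, whose product has a high affinity for cyclic GMP, had signals of 1669 and 1212 in the knockout and 1203 and 1445 in the control. Its log2 ratios of 0.47 and -0.25 had opposite directions, with a mean of 0.11 ± 0.51 (SD, n = 2 arrays).

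**Figure D3:**
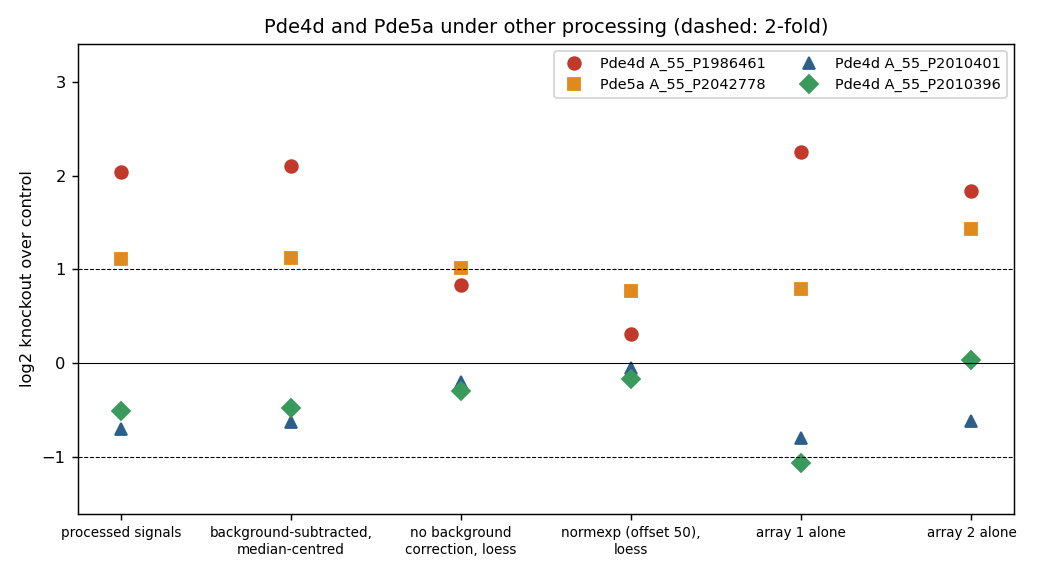
Log2 ratio of knockout over control of the Pde5a probe and the 3 Pde4d probes under 4 ways of handling background and normalization (means of 2 arrays) and on each array alone. Pde5a stays between 0.77 and 1.43, whereas Pde4d A_55_P1986461 runs from 0.31 to 2.25. Their processed signals were 267 to 718 for Pde5a and 12.8 to 66.1 for this Pde4d probe. Whether the ranges follow from this was not tested.

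The enzymes that split both nucleotides were not called in either direction. Pde1a, a calcium and calmodulin-stimulated enzyme, had signals of 2430 and 2124 in the knockout and 2473 and 2345 in the control. The genotypes overlapped over the 2 arrays, and the log2 ratio was -0.03 and -0.14, with a mean of -0.08 ± 0.08 (SD, n = 2 arrays). Pde3b, an enzyme that cyclic GMP inhibits and that is best known from adipocytes and hepatocytes, had signals of 946 and 705 in the knockout and 914 and 856 in the control. Its log2 ratios were 0.05 and -0.28.

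Pde3a, the related enzyme of heart and smooth muscle, was dim on all 3 of its probes. A_55_P2071402 had signals of 14.8 and 16.8 in the knockout and 21.7 and 15.0 in the control, with log2 ratios of -0.56 and 0.17. A_55_P2071406 had 53.6 and 18.6 in the knockout and 19.4 and 52.4 in the control. These values followed the dye: array 1 gave a log2 ratio of 1.47 and array 2 one of -1.50, and the mean was -0.01 ± 2.09 (SD, n = 2 arrays). The remaining probe, A_55_P2049373, was not well above background in any channel.

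Pde10a, an enzyme best known from the striatum, had 1 tested probe of 3. A_51_P419017 had signals of 51.3 and 39.5 in the knockout and 32.7 and 70.8 in the control, and its log2 ratios of 0.65 and -0.84 again had opposite directions. Of the untested probes, A_55_P2090484 was well above background in 1 channel, with signals of 9.61 to 15.8, and A_55_P2000379 in none.

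Most phosphodiesterase probes changed direction when the dyes were exchanged. Of the 15 tested, 5 kept their sign from array to array: the first and second Pde4d probes, Pde5a, Pde8a and Pde1a. Of the other 10, 8 were higher in the knockout on array 1 and lower on array 2. In these 10, as in any probe that changed direction, the contrast between the dyes was larger in size than the mean log2 ratio. Over all probes tested this share was 73.0%. The median log2 ratio of the 15 was 0.14 on array 1 and -0.28 on array 2, and their median mean was -0.10. Over all probes tested the medians were -0.002 and -0.0197 by array and -0.0029 for the mean.

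**Figure D4:**
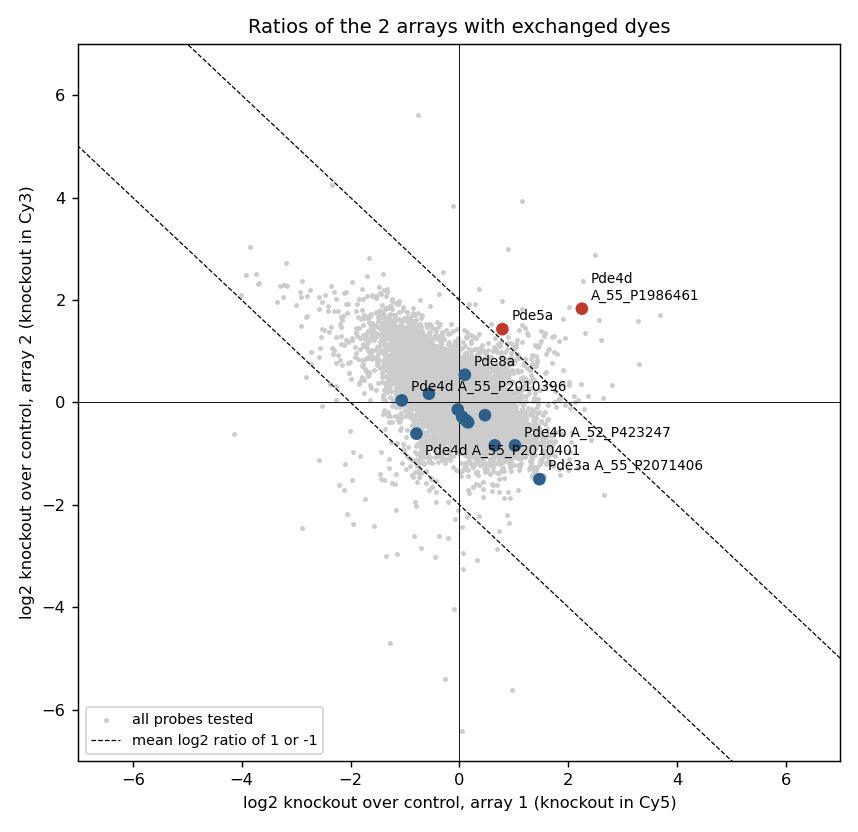
Log2 ratio of knockout over control on array 1 (x axis) against array 2 (y axis) for all 24593 probes tested (grey) and the 15 tested phosphodiesterase probes (red where called, blue otherwise). Dashed lines mark a mean of 1 and -1; the grey cloud runs from upper left to lower right, and the first Pde4d probe and Pde5a lie beyond the upper line.

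The genes whose ratios were nearest to those of the first Pde4d probe over the 2 arrays were Aldh1a3, Pdia2, Gcnt3, Meox2 and Pi4k2b. Aldh1a3, which codes for an enzyme that makes retinoic acid, had log2 ratios of 2.02 and 1.86, a distance of 0.23 from Pde4d. Pdia2, a protein disulfide isomerase, had 2.57 and 1.61, and Gcnt3, a mucin-type glycosyltransferase, had 1.89 and 1.62. Meox2, a homeobox factor, had 2.30 and 1.36, and Pi4k2b, a phosphatidylinositol kinase, had 1.94 and 1.25. All 5 were well above background in both genotypes, unlike the Pde4d probe. The likeness rests on 2 arrays.

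Other genes of the cyclic nucleotide pathway were taken from lists, each gene by its brightest probe. Of 98 such genes, 78 were tested and none was called in either direction, while over 19705 gene names tested 0.315% were called higher and 0.284% lower. The median of their mean log2 ratios was -0.06, and that over all gene names was -0.0081. 23 of the 78 had the same direction on both arrays, and the share over all gene names was 27.7%.

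Among the other phosphodiesterases, 10 of 14 were tested, with mean log2 ratios from -0.67 for Pde6h, an inhibitory subunit of the cone enzyme, to 0.19 for Pde6d, a carrier of prenylated proteins. Pde6h had -0.55 and -0.78 on the 2 arrays, and Pde6d had 0.30 and 0.07. None of the genes that make the nucleotides was called. Of 10 adenylyl cyclases 6 were tested, between -0.30 for Adcy1 and -0.01 for Adcy9. Of 12 guanylyl cyclases and natriuretic peptide receptors 8 were tested, between -0.28 for the clearance receptor Npr3 and 0.04 for Npr1, the receptor of atrial natriuretic peptide, and none had the same direction on both arrays.

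Among the receptors coupled to cyclic AMP, 16 of 18 were tested. Calcrl, a receptor for calcitonin gene-related peptide and adrenomedullin, had the highest mean, with log2 ratios of 0.90 and 0.51, but was not well above background in both genotypes. The lowest mean was that of Adrb3, a β-adrenoreceptor, with -0.39 and -0.82. Adrb1, the β-adrenoreceptor of renin-secreting cells, had 0.38 and -1.23, with opposite directions.

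Downstream, 12 of 13 effectors were tested. The regulatory subunits of protein kinase A held both ends of this list: Prkar1b had log2 ratios of -0.30 and -0.55, and Prkar2a had 0.69 and 0.07. Of 15 A-kinase anchoring proteins, which tether protein kinase A and in part phosphodiesterases, 11 were tested. Akap7 came closest to the 2-fold limit of all 78 genes, with -0.65 and -1.21 and a mean of -0.93 ± 0.39 (SD, n = 2 arrays), whereas Akap8l had the highest mean of the list, 0.00. Of 16 genes of cyclic AMP responsive transcription 15 were tested. Ppargc1a, a coactivator induced by cyclic AMP, had -0.40 on both arrays, and Crem, a transcription factor of the pathway, had 0.48 and -0.17.

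**Figure D5:**
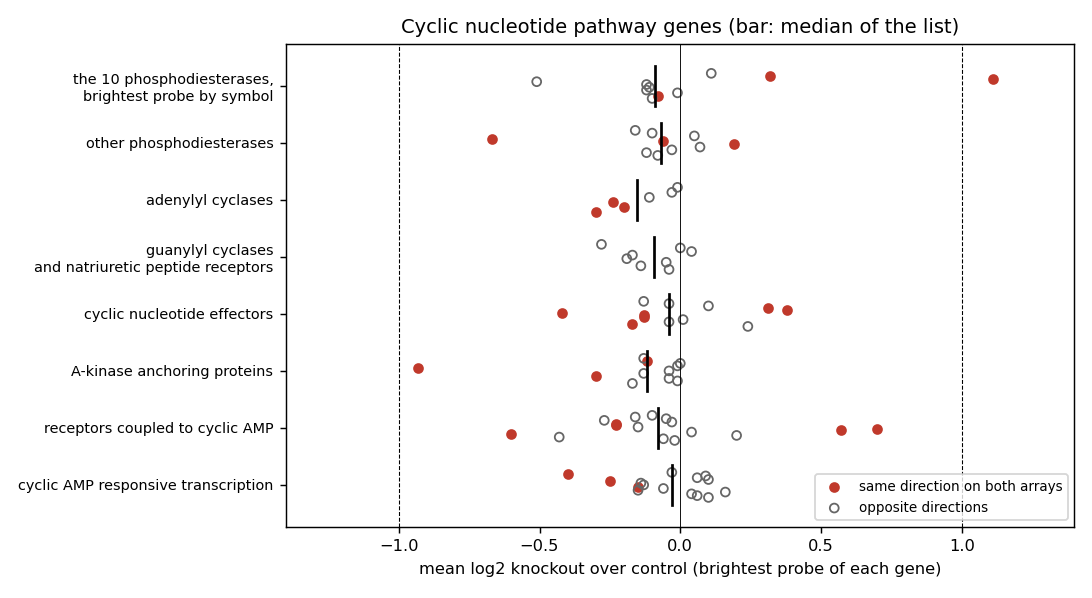
Mean log2 ratio of knockout over control of the brightest probe of each tested gene, for the 10 phosphodiesterases and the 7 other lists; filled points had the same direction on both arrays, open points opposite directions, and bars are medians. Pde5a is the only point beyond a dashed line of 2-fold; Pde4d is shown by A_55_P2010396, its brightest probe, at -0.51.

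Markers of some cell types also differed between the samples. In the list for the distal convoluted tubule, Pvalb, Trpm6 and Calb1, 3 of 4 markers, were called lower in the knockout. Over all gene names tested the share called lower was 0.284%. The list was chosen with earlier results of these data known, so nothing is read from the count. The 4 had mean log2 ratios from -1.75 to -0.30, and Slc12a3 had opposite directions, -0.78 and 0.19. The 5 urothelium markers were higher on both arrays, from 0.36 to 0.87, and none was called. Their summed signal was 2100 to 2447 in the knockout and 1409 to 1762 in the control. Smooth muscle and pericyte markers, the cells for which PDE5A is best known, had means from -0.25 to 0.27 in 6 of 6 tested genes, none called, and their summed signal was 7417 to 7452 in the knockout and 6899 to 10000 in the control. Of these, 1 gene, Cnn1, had the same direction on both arrays, and single arrays ranged from -1.17 for Des on array 1 to 0.85 for Des on array 2. Podocyte markers had means from -0.36 to -0.11, and the renin cell markers Ren1 and Akr1b7 -0.45 and -0.52, with none called. Of these, Podxl and Ren1 had opposite directions on the 2 arrays. Other marker lists are not described here. The part of these marker differences in the Pde4d and Pde5a ratios was not tested.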

How the data were processed

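The files are the scanner outputs of 2 two-colour Agilent 60-base arrays and a table of ratios. The authors deposited each spot's processed signal, an intensity that Feature Extraction (10.7.3.1 in the file headers, 10.5.1.1 in the submitters' notes) had background-corrected and dye-normalized, with flags, error values and the log10 ratio. Control spots and spots marked as outliers (141 and 175 of 43020) were left out, and spots of a probe were averaged. Log2 ratios of knockout over control were computed from the processed signals, turned by the dye labels, and averaged over the 2 arrays. The authors' deposited log10 ratios and ratio table come from the same signals, so that they gave the same calls is no independent check. No gene spot was saturated. Precision is limited by the 2 arrays. The genes, gene lists and rules were chosen with earlier results of these data known. All probes of the 10 genes are named; of the other pathway lists, the genes with the highest and the lowest mean, and the 5 genes nearest to the first Pde4d probe. Adrb1 was added after its values were seen. Alternatives covered background correction (limma 3.58.1, normexp, loess), filters, each array alone, limma and the methods' t-test. Only the rule of size, limma and that t-test were also run on simulated ratios, whose dye contrast was smaller than in these arrays. Analyses used R 4.3.3 and Python 3.11.15. Positions and names are those of the array files.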

Additional observations from a re-analysis of the deposited data

How the results depend on the processing

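Of all probes tested, 77 were called higher and 64 lower, and of the phosphodiesterase probes 2 and 0. With normexp and loess these became 12 and 9, with 0 phosphodiesterase probes, and the Pde4d A_55_P1986461 mean was 0.31. With no background correction and loess they became 17 and 13, with 1 phosphodiesterase probe, Pde5a, and the first Pde4d probe at 0.83. Without a limit on dim probes 290 and 222 were called, and 1 pathway gene, Adcy3, was higher. When both genotypes had to be well above background, the counts were 43 and 30, with 1 phosphodiesterase probe, Pde5a. At least 2-fold on each array left 35 and 24, with 1 phosphodiesterase probe, the first of Pde4d. The methods' t-test, paired over the 2 arrays, asked for p under 0.1 and a mean of at least 2-fold. It left 28 and 19, again with the first Pde4d probe. That t-test with Benjamini-Hochberg adjustment called 0 and 0, as did limma, and 0 phosphodiesterase probes; the smallest adjusted p was 1 in both. Of 24593 probes tested, unadjusted p fell under 0.05 for 580 in the t-test and 271 in limma, both less than a share of 0.05. The contrast between the dyes in place of the genotypes called 189 and 597, with 1 phosphodiesterase probe, Pde3a A_55_P2071406. It gave the first Pde4d probe 0.21 and Pde5a -0.32. The cause of these differences was not tested. On either array alone, 944 to 1347 probes were at least 2-fold higher and 936 to 1055 lower. Of phosphodiesterase probes, 2 to 3 were higher and 1 lower on each, and 1 pathway gene was higher on each and 0 to 2 lower. The first Pde4d probe ranged from 1.83 to 2.25 and Pde5a from 0.79 to 1.43. Both calls held with background-subtracted signals. They also held with the deposited ratios and with marked spots kept, which are no independent check. Of 170 values of the phosphodiesterase probes not called, 152 moved by less than the SD of the arrays and 18 by more. This count does not measure robustness. A value from 1 array alone cannot differ from the mean by more than this SD. The deposited ratios, marked spots kept and saturated probes left out gave almost the same values again. The contrast between the dyes was counted as well.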
